A study of Rattus norvegicus with 18 samples.

Results

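Cathepsins are proteases of the endosome and lysosome, and 8 of them were followed here through age in 2 regions of the rat nervous system: Ctsb, Ctsc, Ctsd, Ctse, Ctsh, Ctsl, Ctss and Ctsz. The members were every probe set of the array, a group of short probes that together measure a transcript, whose annotation names 1 of these genes alone. That gave 10 probe sets among 15923, since Ctsc and Ctsl have 2 each, and 8 genes among the 10412 that the array names singly. The tissues were the oculomotor nucleus of the midbrain, whose motor neurons drive muscles of the eye, and the spinal cord. Each tissue was sampled at 6, 18 and 30 months of age, with 3 Affymetrix RA230 arrays in each of the 6 groups and 18 in all. No genotype, treatment or sex is given in the labels, and the strain, F344BN, is named for 2 of the oculomotor arrays at 6 months only. RNA of 4 animals was pooled on each array, so all p-values measure the spread between pools and not between animals. The submitters' notes speak of 4 replicates in a group, whereas the labels, which were followed here, give 3.

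Most cathepsins are cysteine proteases of the papain family (Ctsb, Ctsc, Ctsh, Ctsl, Ctss, Ctsz), while Ctsd and Ctse are aspartic proteases. They are made as inactive proenzymes, carried to the lysosome largely by mannose-6-phosphate receptors, activated at acid pH, and held in check outside it by cystatins and other inhibitors. In the nervous system Ctsd, Ctsb and Ctsl serve protein turnover in neurons and glia alike, whereas Ctss is a protease of microglia and macrophages that trims the invariant chain from MHC class II molecules. Ctse is found in immune cells and the gut, Ctsc activates the serine proteases of granulated leukocytes, Ctsh is an aminopeptidase, and Ctsz is a carboxypeptidase.

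The RNA was of whole tissue, and fewer cells of a type cannot be told apart from less RNA per cell. The median signal of an array was 252 to 275. A floor was set at 66.4, the 20th percentile of all signals, and 18.0% to 21.0% of the values on each array were at it or below. A probe set was tested if its mean signal on the log2 scale passed 7.459, a signal of 176, which 9482 did. Summed over 5 motor neuron markers, signals were 1142 to 1515 on the oculomotor arrays and 3147 to 4151 on the cord arrays at 6 months, and Isl1, one of the 5, lay at the floor on all 3 oculomotor arrays of that age. Chat, the enzyme that makes acetylcholine, had a mean signal of 114 to 155 in the 3 oculomotor groups. Th, which marks dopamine neurons, had 2291 to 2563 there, against 87.0 to 115 in the cord groups. On the first principal component after group means were removed, which held 27.1% of the variance, some arrays stood apart at the negative end. They were oculomotor replicate 3 at 30 months and cord replicates 1 at 6 months, 3 at 18 months and 3 at 30 months. Their scores were -16.6 to -12.1, against -1.70 or more elsewhere. The set was drawn from that end alone. Oculomotor replicate 2 at 30 months lay far out at the positive end, with a score of 14.2, and was not in the set. That array also had the highest median signal, 275, and the lowest share of values at the floor, 18.0%. Cord replicates 1 at 30 months (9.01) and 3 at 6 months (8.95) came next at that end. Skeletal muscle transcripts summed to 3706 and 6992 on cord replicates 1 and 2 at 6 months and to 3014 on replicate 2 at 18 months, against 553 to 1121 on the other cord arrays.

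The start sites of the genes are shown first, because the regulators named for lysosomal and myeloid genes bind short motifs there. RefSeq's rat promoters (build GRCr8) run from 250 bases before to 50 after each start, and 7 of the 8 genes have one. Ctsb is without an entry. The E-box CACGTG is the core of the element bound by TFEB, a regulator of lysosomal genes, GAGGAAG is the core of the motif of PU.1, a factor of the myeloid lineage, and GAAA repeated after any 2 bases is the core bound by interferon regulatory factors. No motif overlaps another in these windows. Both strands were searched, so that CTTCCTC is GAGGAAG read on the other strand. The PU.1 core was present in 5 of the 7 windows, those of Ctsc, Ctse, Ctsh, Ctss and Ctsz, and in 12.4% of 33469 rat promoters of the same length. The E-box lay in 1 of the 7, that of Ctsd, which holds 2 copies, and in 6.42% of all promoters. The interferon core lay in 1 of the 7, that of Ctss, and in 3.92% of all. The Ctsl window held none of these letters. A match of letters is a description and not evidence of binding. The windows of Ctse and Ctss, the genes with the smallest p between ages in the cord and in the oculomotor nucleus, are given whole, and the others by the stretch around the match, with the motifs in capitals, 5′ to 3′ on the strand of the gene.
Ctse (chr13:45643965-45644264, plus strand): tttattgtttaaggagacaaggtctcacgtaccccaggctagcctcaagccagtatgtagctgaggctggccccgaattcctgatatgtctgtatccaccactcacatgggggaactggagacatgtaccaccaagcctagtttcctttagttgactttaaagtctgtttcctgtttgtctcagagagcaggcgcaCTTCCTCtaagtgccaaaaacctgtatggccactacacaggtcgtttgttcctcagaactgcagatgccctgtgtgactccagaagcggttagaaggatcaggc
Ctss (chr2:185775146-185775445, plus strand): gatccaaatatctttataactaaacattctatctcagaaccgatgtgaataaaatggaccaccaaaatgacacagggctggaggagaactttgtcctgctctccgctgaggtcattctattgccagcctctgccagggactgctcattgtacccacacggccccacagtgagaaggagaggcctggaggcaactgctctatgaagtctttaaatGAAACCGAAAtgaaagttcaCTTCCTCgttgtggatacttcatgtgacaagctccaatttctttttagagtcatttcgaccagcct
Ctsh (chr8:99488674-99488720, plus strand): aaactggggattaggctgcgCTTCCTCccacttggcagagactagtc
Ctsz (chr3:183653894-183653940, minus strand): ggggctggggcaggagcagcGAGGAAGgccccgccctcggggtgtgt
Ctsc (chr1:151440799-151440828, plus strand): taaCTTCCTCaggccacaggtaattctatc
Ctsd, first copy (chr1:206968953-206968998, minus strand): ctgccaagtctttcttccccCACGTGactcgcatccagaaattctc
Ctsd, second copy (chr1:206968806-206968851, minus strand): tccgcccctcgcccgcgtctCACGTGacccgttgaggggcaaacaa

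The PU.1 core began 54 bases before the start site in Ctse, 16 in Ctss, 62 in Ctsh, 73 in Ctsz and 247 in Ctsc, and the interferon core began 36 before it in Ctss. In Ctss the 2 motifs are 10 bases apart, while in Ctsd the E-boxes began 157 and 10 bases before the start.

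Age changed 1 cathepsin in the spinal cord past the test and none in the oculomotor nucleus. Calls were rare among all probe sets too. Against 6 months, 0.728% were called in the cord at 18 months and 0.221% at 30 months, and 0 and 0.211% in the oculomotor nucleus. No member passed a test of a difference between the tissues in its age change. Ctse rose in the older cord, reaching 1.98 times its 6-month level in the 18-month group and 1.88 times in the 30-month group. The 30-month call was lost under several alternatives, such as no filter on low signals (adjusted p = 0.0515). That at 18 months was lost without cord replicate 2 at 18 months (adjusted p = 0.0553). Without passing the test, Ctsz, Ctsh, Ctss, Ctsd, Ctsb and probe set 1370245_at of Ctsl had higher means at both later ages in the cord. In the oculomotor nucleus Ctss, Ctsd, Ctse and Ctsh did so. Ctsb and Ctsl stayed within 0.18 of their 6-month values on the log2 scale in every comparison of a later age with 6 months. The test was limma's moderated linear model across all 9482 probe sets and 18 arrays, and a probe set was called at a Benjamini-Hochberg adjusted p under 0.05.

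**Figure D1:**
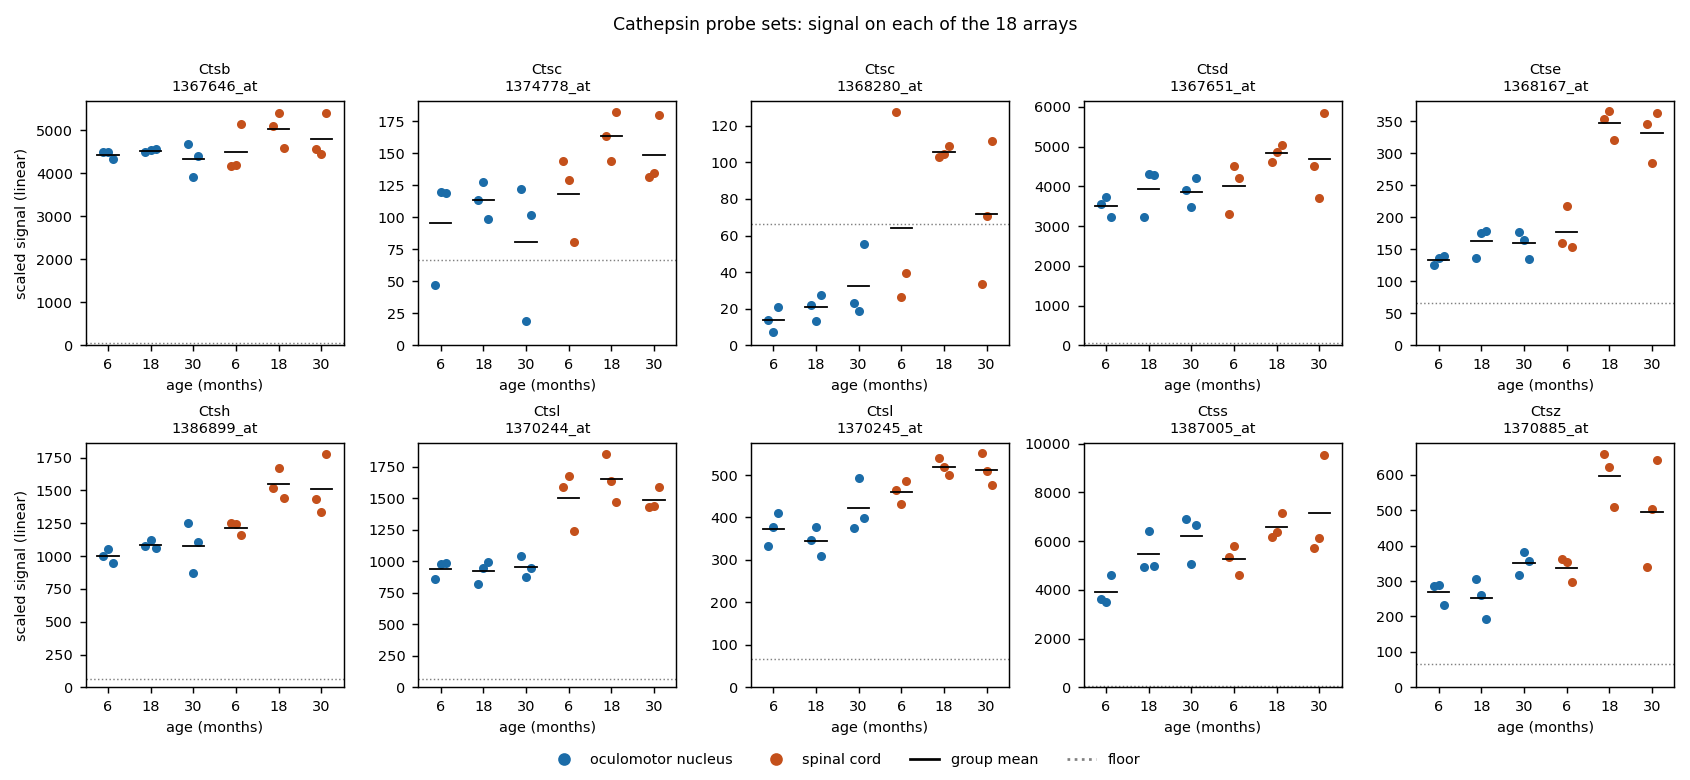
Scaled signal (linear axis from 0) of each of the 10 cathepsin probe sets on every array, with oculomotor nucleus in blue and spinal cord in orange, each at 6, 18 and 30 months. Points are arrays, bars are the means of 3 arrays and the dotted line is the floor of 66.4. Ctse stands between 285 and 366 on the 6 cord arrays of 18 and 30 months, above all other arrays.

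Ctse (probe set 1368167_at) was the only member called between ages. In the spinal cord its signals were 160.4, 218 and 153 at 6 months, 353, 366 and 321 at 18 months, then 347, 285 and 363 at 30 months. Every array of either later age lay above every array of 6 months, while the 2 later ages overlapped. Means were 347 ± 23.3 at 18 months and 331 ± 41.3 at 30 months, against 177 ± 35.4 at 6 months (SD, n = 3 each). On the log2 scale the 18-month mean exceeded that of 6 months by 0.99 (SE 0.17, adjusted p = 0.00577) and the 30-month mean by 0.91 (SE 0.17, adjusted p = 0.0173). Of all probe sets tested, 0.728% were called between 18 and 6 months in the cord and 0.221% between 30 and 6 months. Over the 3 ages together, limma's F statistic gave an adjusted p of 0.00739, a call that 0.411% of all probe sets shared. The 30-month mean lay 0.07 below the 18-month mean on the log2 scale (95% confidence interval -0.42 to 0.28).

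The Ctse call at 18 months held without the filter on low signals, and that at 30 months did not. Ctse passed the filter on its mean over all arrays through its cord levels at 18 and 30 months, since 7 of the 9 oculomotor arrays and 2 of the 3 cord arrays at 6 months lay under 176. With no filter its adjusted p was 0.0222 at 18 months, and a stricter filter removed it. Without the 3 cord arrays rich in muscle transcripts the log2 differences were 1.13 at 18 months and 1.10 at 30 months, with adjusted p = 0.116 and 0.0672. Both then rest on a single cord array of 6 months, whose spread is taken from the remaining groups. Without cord replicate 2 at 18 months the 18-month adjusted p was 0.0553. The 30-month call was also lost without cord replicate 1 or 3 at 6 months or without cord replicate 1 or 3 at 30 months, with adjusted p from 0.0564 to 0.135.

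In the oculomotor nucleus Ctse had signals of 125, 137 and 139 at 6 months, 137, 176 and 179 at 18 months, then 177, 165 and 136 at 30 months. The groups overlapped, and the log2 differences from 6 months were 0.28 at 18 months (95% interval -0.06 to 0.63) and 0.25 at 30 months (-0.10 to 0.59). The difference between the tissues in this change, oculomotor nucleus minus cord, was -0.70 at 18 months (SE 0.24, unadjusted p = 0.00771, adjusted p = 0.911) and -0.67 at 30 months (SE 0.24, unadjusted p = 0.0105, adjusted p = 0.806). Neither passed, so a difference between the tissues in how Ctse changed with age was not shown. No probe set passed either interaction test, although 5.07% had an unadjusted p under 0.05 at 18 months and 5.47% at 30 months.

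Ctsz (1370885_at), the carboxypeptidase, came next in the cord. Its cord signals were 362, 352 and 299 at 6 months, 659, 623 and 508 at 18 months, then 339, 504 and 642 at 30 months. All 3 arrays of 18 months lay above all of 6 months, and those of 30 months spread across both. The 18-month mean exceeded that of 6 months by 0.82 on the log2 scale (SE 0.20, unadjusted p = 0.000608), and the adjusted p was 0.0663, short of the threshold. Without the 4 arrays that stand apart at the negative end of the first component it was called, with a difference of 0.98 and an adjusted p of 0.0349. Leaving out cord replicate 3 at 18 months, or cord replicate 1 or 3 at 30 months, had the same effect, with adjusted p from 0.0312 to 0.0490. It passed under 5 of 32 alternatives, with differences of 0.73 to 0.98 and adjusted p from 0.0312 to 0.298. At 30 months the difference was 0.51 (SE 0.20, adjusted p = 0.351). Oculomotor Ctsz signals were 287, 290.04 and 232 at 6 months, 305, 259.9 and 193 at 18 months, then 318, 381 and 358 at 30 months. There the arrays of 30 months lay above those of 6 and of 18 months, with log2 differences of 0.39 (adjusted p = 0.626) and 0.50 (adjusted p = 0.976). In the change at 18 months the oculomotor nucleus minus the cord was -0.93 (SE 0.28, unadjusted p = 0.00376, adjusted p = 0.831).

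Ctss (1387005_at), the microglial protease, had higher means at both later ages in both tissues. Oculomotor signals were 3608, 3511 and 4593 at 6 months, 4950.3, 6417 and 4994 at 18 months, then 6905, 5046 and 6661 at 30 months. Every array of either later age lay above every array of 6 months. The log2 difference from 6 months was 0.48 at 18 months (SE 0.17, unadjusted p = 0.0116, adjusted p = 1.00) and 0.67 at 30 months (SE 0.17, unadjusted p = 0.00108, adjusted p = 0.221). Neither passed. At 18 months no probe set at all was called in the oculomotor nucleus, where 3.39% had an unadjusted p under 0.05, and at 30 months 0.211% were called. Leaving out cord replicate 3 at 30 months, whose spread the groups share, brought the 30-month adjusted p to 0.0458. In the cord Ctss had signals of 5343, 5785 and 4614 at 6 months, 6164, 6354 and 7164 at 18 months, then 5715, 6147 and 9543 at 30 months. The highest is an array that stands apart on the first component. The log2 differences were 0.33 at 18 months (adjusted p = 0.540) and 0.41 at 30 months (adjusted p = 0.391), and in the change at 30 months the tissues differed by 0.25 (95% interval -0.26 to 0.77).

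Ctsh (1386899_at), the aminopeptidase, did not overlap between the later ages and 6 months in the cord. Its signals there were 1250.3, 1241 and 1159 at 6 months, 1522, 1670.1 and 1446 at 18 months, then 1436, 1333 and 1775 at 30 months. The log2 differences were 0.34 at 18 months (SE 0.12, adjusted p = 0.279) and 0.31 at 30 months (SE 0.12, adjusted p = 0.363). In the oculomotor nucleus Ctsh had 1002, 1052 and 950.4 at 6 months, 1075, 1121 and 1059 at 18 months, then 1255, 873 and 1104 at 30 months. Differences there were 0.12 and 0.09 at 18 and 30 months, both with intervals that include 0.

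Ctsd (1367651_at), the main aspartic protease of the lysosome, had cord signals of 3300, 4500 and 4220 at 6 months, 4606, 4868 and 5042 at 18 months, then 4505, 3704 and 5848 at 30 months. All arrays of 18 months lay above all of 6 months, and the arrays of 30 months spanned both groups. The log2 differences were 0.28 at 18 months (95% interval -0.03 to 0.60) and 0.21 at 30 months (-0.10 to 0.53). In the oculomotor nucleus signals were 3550, 3738 and 3232 at 6 months, 3238, 4311 and 4277 at 18 months, then 3913, 3488 and 4202 at 30 months. These groups overlapped, with differences of 0.16 and 0.14.

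Ctsb (1367646_at) and Ctsl, the broad endopeptidases of the lysosome, differed from 6 months by at most 0.18 on the log2 scale in either tissue. Oculomotor Ctsb was 4487, 4491 and 4325 at 6 months, 4494, 4533 and 4559 at 18 months, then 4680.1, 3917 and 4393 at 30 months. Cord Ctsb was 4173, 4186 and 5153 at 6 months, 5104, 5408 and 4587 at 18 months, then 4565, 4445 and 5392 at 30 months. The intervals of its differences from 6 months ran from -0.19 to 0.25 and from -0.25 to 0.18 in the oculomotor nucleus, and from -0.05 to 0.38 and from -0.12 to 0.31 in the cord. All 4 intervals include 0. Ctsl is measured by 2 probe sets. Probe set 1370244_at had oculomotor signals of 861, 978 and 988 at 6 months, 823, 947 and 994 at 18 months, then 1045, 879 and 944 at 30 months. Its cord signals were 1595, 1677 and 1244 at 6 months, 1849, 1639 and 1471 at 18 months, then 1432, 1439 and 1587 at 30 months. Neither tissue showed an order by age. Probe set 1370245_at ranged over 310.3 to 493 on the oculomotor arrays and 431 to 551 on the cord arrays. The probe sets differed in the oculomotor nucleus between 30 and 18 months, where 1370245_at was 0.29 higher (SE 0.12, unadjusted p = 0.0315, adjusted p = 0.976) and 1370244_at 0.05 higher (SE 0.12).

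Ctsc could be followed only near the floor, and both of its probe sets fell short of the filter. Probe set 1374778_at had oculomotor signals of 47.3, 119.7 and 119 at 6 months, 114, 128 and 98.6 at 18 months, then 122, 19.1 and 102 at 30 months. In the cord it had 144, 129 and 81.0 at 6 months, 163, 144 and 183 at 18 months, then 132, 135 and 179.9 at 30 months. Probe set 1368280_at lay under the floor on all 9 oculomotor arrays, at 7.10 to 55.4, and on 3 of the 9 cord arrays. The 18-month cord group was its tightest, with 103, 104 and 109. In a fit with no filter, neither probe set passed in any comparison of ages, and their cord differences at 18 months were 0.51 (adjusted p = 0.596) and 0.35 (adjusted p = 0.646), the second with 2 of the 3 arrays of 6 months raised to the floor.

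**Figure D2:**
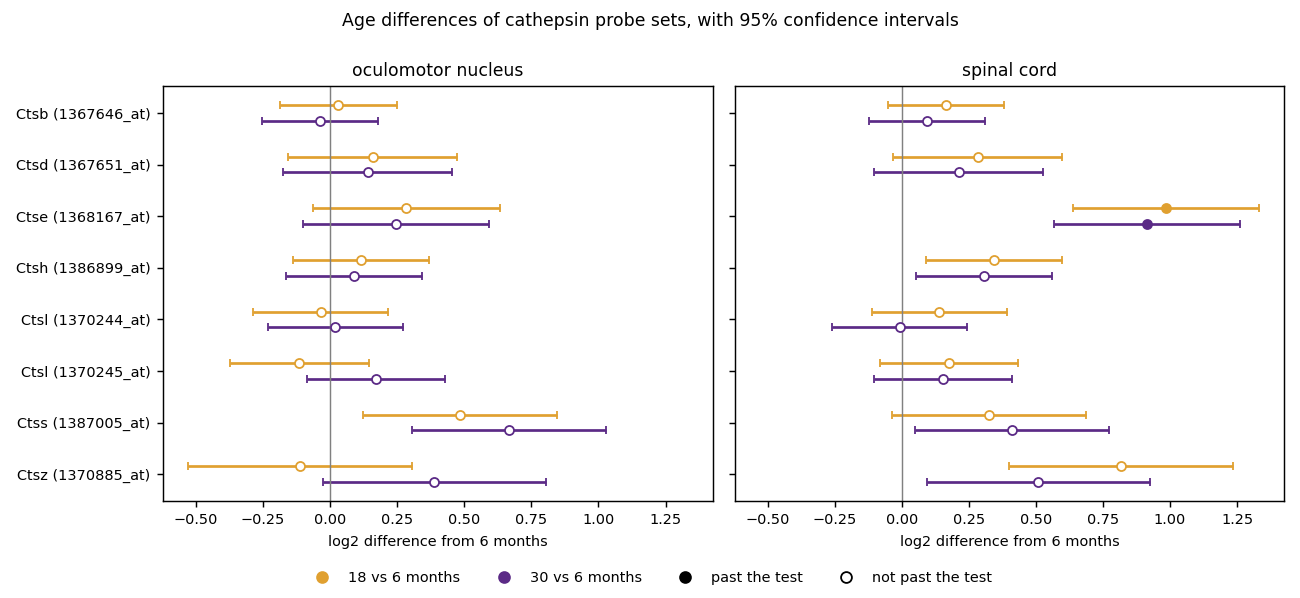
Log2 difference of 18 months (yellow) and 30 months (purple) from 6 months for the 8 cathepsin probe sets tested, in the oculomotor nucleus (left) and the spinal cord (right), with 95% confidence intervals. Filled points passed the test at an adjusted p under 0.05, and Ctse in the cord is the gene with filled points, at 0.99 and 0.91.

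Read as a group, 8 of 8 probe sets had a positive difference in the cord at 18 months, with a median of 0.30 against -0.00184 over all probe sets, of which 49.5% were positive. Of the 8, 6 probe sets, those of Ctsd, Ctse, Ctsh, Ctss, Ctsz and 1370245_at of Ctsl, had all arrays of 18 months above all of 6 months, as did 6.95% of all probe sets. At 30 months 7 of 8 were positive (50.4% of all), with a median of 0.26, and Ctse and Ctsh did not overlap with 6 months, against 6.68% of all probe sets. Between 30 and 18 months in the cord 7 of 8 were negative, with a median of -0.07, and 0 were called or had an unadjusted p under 0.05. Of all probe sets 0.0105% were called in that comparison, 2.14% had an unadjusted p under 0.05 and 49.6% were positive. In the oculomotor nucleus at 18 months 5 of 8 were positive (median 0.07, 49.1% of all positive), 1 had an unadjusted p under 0.05 and 0 were called. All arrays of 18 months lay above all of 6 months for 3 of 8, those of Ctsb, Ctsh and Ctss, against 7.29% of all probe sets. At 30 months there 7 of 8 were positive (median 0.16, 50.2% of all positive), 1 had an unadjusted p under 0.05 (8.12% of all), 0 were called, and Ctss and Ctsz did not overlap with 6 months (6.69% of all). Between 30 and 18 months there, 4 of 8 were positive (51.2% of all), 2 had an unadjusted p under 0.05 (4.71% of all) and 0 were called, against 0.0105% of all. Over the 3 ages of the oculomotor nucleus 0 passed the F test, against 0.0844% of all probe sets, and the smallest adjusted p was 0.475 for Ctss. The comparisons with 6 months share those arrays, so the counts at 18 and 30 months are not independent of each other.

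Most cathepsins had lower signals in the oculomotor nucleus than in the cord. Averaged over the ages, 7 of the 8 probe sets were lower in the oculomotor nucleus past the test, those of Ctsd, Ctse, Ctsh, Ctss, Ctsz and both of Ctsl. This comparison sets 9 arrays against 9, and those of ages 3 against 3. Tissue differences were common on the array, since 23.6% of all probe sets were called lower in the oculomotor nucleus in this comparison and 47.2% in either direction. All 8 probe sets were lower in the oculomotor nucleus at each age, with medians of -0.32 at 6 months, -0.55 at 18 months and -0.37 at 30 months on the log2 scale, where the medians of all probe sets were 0.0099, 0.0052 and 0.012. Of all probe sets 51.4%, 50.6% and 51.8% were higher in the oculomotor nucleus at those ages. Most lists of cell type markers had a negative median over the mean of ages, while those of dopamine neurons and choroid plexus were positive. All 13 microglial markers tested were called lower (median -0.67). So were 5 of 7 for oligodendrocytes (median -0.35), 5 of 8 for astrocytes (-0.28, 1 called higher) and 4 of 8 for neurons (-0.26, 2 called higher). Markers of meninges, blood and vessels differed in the same direction. Over the mean of ages all 6 markers of meninges and matrix were called lower in the oculomotor nucleus, with a median of -2.06, as were both blood markers (median -1.35) and 4 of 5 vascular markers (median -0.49). Summed over the 6 meningeal markers, signals were 2179 to 2412 at 6 months, 1571 to 1737 at 18 months, then 1102 to 1405 at 30 months on the oculomotor arrays. On the cord arrays they were 5040 to 7019 at 6 months, 4332 to 6265 at 18 months, then 3932 to 5585 at 30 months. By age 2 of the 6 were called, Igf2 and the collagen gene Col1a1, lower in the oculomotor nucleus at 30 than at 6 months (differences -1.13 and -1.33). Sums of the 2 blood markers were 4173 to 9341 on the oculomotor arrays and 9486 to 19705 on the cord arrays, and those of 7 vascular markers 2366 to 2860 and 3527 to 3953. None of these markers was at the floor on every array, and their part in the tissue differences of the cathepsins was not tested.

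At 6 months 1 of the 8 was called lower, at 18 months 5 and at 30 months 3, while 13.4%, 13.9% and 11.3% of all probe sets were called lower at those ages. Ctsl by 1370244_at was the steadiest. Its 9 oculomotor arrays had signals of 823 to 1045 (median 947) and its 9 cord arrays 1244 to 1849 (median 1587), and it was the only member whose tissues did not overlap over all ages. All oculomotor arrays lay below all cord arrays for 7.33% of all probe sets. Its log2 difference was -0.67 at 6 months (adjusted p = 3.97e-04), -0.84 at 18 months (adjusted p = 3.31e-05) and -0.64 at 30 months (adjusted p = 6.85e-04). Without the 3 muscle-rich cord arrays the 6-month difference was -0.40, with an adjusted p of 0.0943, and rested on 1 cord array of that age, the lowest of the 3. The other Ctsl probe set differed by -0.59 at 18 months (adjusted p = 0.00124), and by -0.30 at 6 months and -0.29 at 30 months without passing (adjusted p = 0.0774 and 0.109). The count at 6 months was 2 without oculomotor replicate 3 at 6 months or cord replicate 3 at 30 months, which added Ctss, and 3 without oculomotor replicate 2 at 30 months, which added Ctsh and 1370245_at.

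Ctse was called lower in the oculomotor nucleus at the later ages. Its log2 difference, oculomotor nucleus minus cord, was -0.39 at 6 months (adjusted p = 0.0943), -1.09 at 18 months (adjusted p = 6.64e-05) and -1.06 at 30 months (adjusted p = 1.19e-04). At each age all oculomotor arrays lay under all cord arrays of the same age, also at 6 months (125 to 139 against 153 to 218). Of all probe sets 22.1% did so at 18 months and 17.1% at 30 months, and no share is given for 6 months. Ctsz had -0.33 at 6 months (adjusted p = 0.249), -1.26 at 18 months (adjusted p = 9.68e-05) and -0.45 at 30 months (adjusted p = 0.121). Ctsh had -0.28 (adjusted p = 0.0967), -0.51 (adjusted p = 0.00382) and -0.50 (adjusted p = 0.00586) at 6, 18 and 30 months. The Ctsh call at 30 months was lost without the 4 arrays that stand apart (difference -0.40, adjusted p = 0.0521). As the tests of the age change by tissue were not passed, these values do not show that the tissue difference of any member depends on age.

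For Ctss and Ctsd the tissue difference was small and passed in the mean over ages only. Ctss was 0.29 lower in the oculomotor nucleus on the log2 scale (difference -0.29, SE 0.10, adjusted p = 0.0205), with 9 oculomotor signals of 3511 to 6905 (median 4994) and 9 cord signals of 4614 to 9543 (median 6147). Ctsd had a difference of -0.25 (SE 0.09, adjusted p = 0.0244), with 3232 to 4311 (median 3738) in the oculomotor nucleus and 3300 to 5848 (median 4505) in the cord. With median centring the Ctsd adjusted p was 0.0536, and with quantile normalization all 8 probe sets were called. Both calls were lost with no filter, with adjusted p = 0.0611 for Ctss and 0.0621 for Ctsd. Ctss was also lost without the muscle-rich arrays (adjusted p = 0.138) and without the arrays that stand apart (adjusted p = 0.0718). The Ctsd call was lost without oculomotor replicate 3 at 6 months or 1 at 18 months, or without cord replicate 2 at 6 months or 3 at 30 months. Ctsb was not called, at -0.10 (95% interval -0.23 to 0.02). For Ctsc in a fit with no filter, the mean difference over ages was -0.47 for 1374778_at (adjusted p = 0.0430), with 2 of the 9 oculomotor arrays raised to the floor. Probe set 1368280_at was under the floor on all 9 oculomotor arrays and has only a bound. With the floor in place of its oculomotor signals, the lower bound of cord over oculomotor nucleus was 1.59-fold at 18 months, not past the test (adjusted p = 0.0540, unfiltered). At 6 and 30 months the bound was 0.77 and 0.97, under 1, so no excess was shown at those ages.

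**Figure D3:**
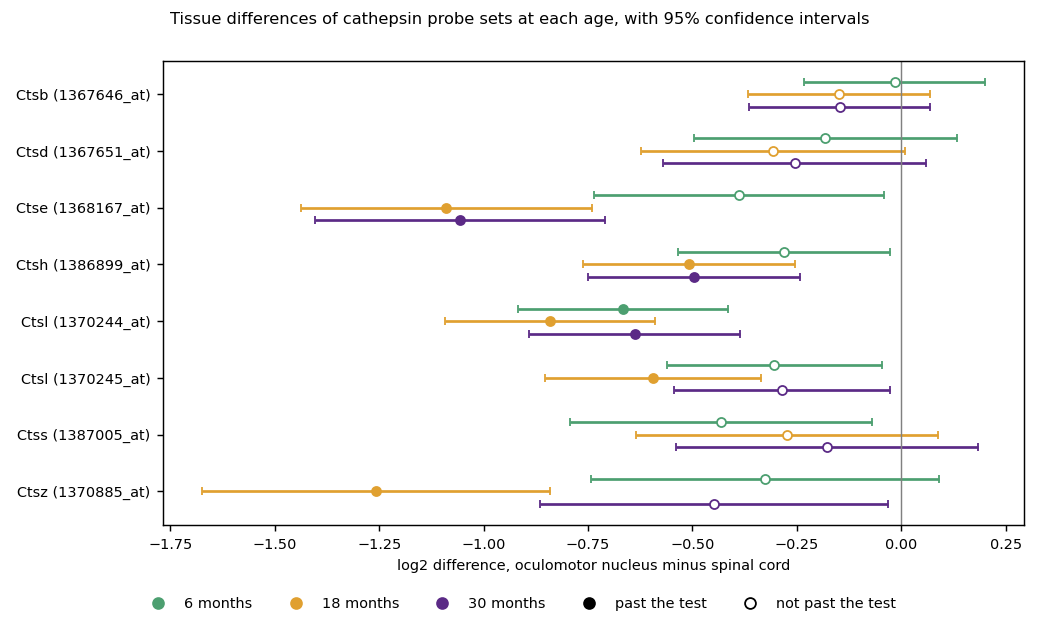
Log2 difference, oculomotor nucleus minus spinal cord, at 6, 18 and 30 months for the 8 cathepsin probe sets tested, with 95% confidence intervals. Filled points passed the test. All points lie below 0, and 1, 5 and 3 of the 8 passed at 6, 18 and 30 months.

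Ordered by mean signal over the 6 groups, the cord at 18 months was highest for 9 of the 10 probe sets, and the cord at 30 months for that of Ctss. Of the 8 tested it was highest for 7, and for 16.8% of all probe sets tested. The ratio of the highest to the lowest group mean was 1.16 for Ctsb, 1.38 for Ctsd, 1.54 for Ctsh, 1.79 and 1.51 for the probe sets of Ctsl, 1.83 for Ctss, 2.36 for Ctsz and 2.59 for Ctse. Most neighbours in these orders overlapped, with at least 1 gap for 5 of the 8 tested and for 30.8% of all probe sets. Ctse had 1 gap between neighbours, the cord at 30 months over the cord at 6 months, and Ctsh 2, the same gap and the cord at 6 months over the oculomotor nucleus at 18 months. Ctsl by 1370244_at had 1, the cord at 30 months over the oculomotor nucleus at 30 months. Ctss and Ctsz had 1 each, the cord at 6 months over the oculomotor nucleus at 6 months. No neighbours were apart for Ctsb, Ctsd, Ctsc or the other probe set of Ctsl.

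The inhibitors of the cathepsins did not change with age past the test. Of 15 listed, 10 were on the array and 5 were tested, Cst3, Cstb, A2m, Serpinb1a and Serpinb9, and 0 were called in any comparison of ages. At most 0.728% of all probe sets were called in a comparison of ages. Cst3, the secreted cystatin C, had means of 10662 ± 893, 10256 ± 453 and 11457 ± 2551 at 6, 18 and 30 months in the oculomotor nucleus. In the cord Cst3 had 10688 ± 1488, 10922 ± 1985 and 10269 ± 2243 (SD, n = 3 each). Cstb, the cytosolic stefin B, ran from 1574 ± 109 to 1689 ± 117 over the oculomotor groups and from 1751 ± 112 to 1933 ± 85.2 over the cord groups. Averaged over ages 4 of the 5 were called lower in the oculomotor nucleus than in the cord, as were 23.6% of all probe sets. The differences were -0.83 for A2m, a plasma protease inhibitor, and -0.96 for Serpinb1a. Of the cathepsins outside the 8, Ctsa and Ctsf were tested, and neither was called between ages in either tissue. Ctsk, which lies near Ctss on the rat assembly with 2 genes between, stayed under the filter, with means of 139 to 179 in the cord groups.

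Lists of other lysosomal genes gave no call by age. Of 26 lysosomal hydrolases tested, 24 proteins of the lysosomal membrane and its acidification, and 11 of mannose-6-phosphate delivery, 0 were called in any of the 6 pairwise comparisons of ages. In these at most 0.728% of all probe sets were called. The median difference of the hydrolases was 0.16 in the cord at 18 months, with 21 of 26 positive, and 0.06 at 30 months, with 19 of 26. In the oculomotor nucleus it was 0.01 at 18 months and 0.05 at 30 months. For the membrane list the medians lay between -0.05 and 0.02 in those 4 comparisons, and for the delivery list between -0.03 and 0.04. Over the mean of ages 14 of the 26 hydrolases were called lower in the oculomotor nucleus and 2 higher, while the membrane list had 9 called lower and 9 higher. Of all probe sets 23.6% were called lower in that comparison and 47.2% in either direction.

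Among substrates and partners of the cathepsins, the genes that passed were mostly of MHC class II. Of 14 tested, 4 rose in the oculomotor nucleus at 30 months, where 0.211% of all probe sets were called: RT1-Da by 1.80 on the log2 scale, Cd74 by 1.67, RT1-Ba by 1.39 and RT1-Db1 by 1.33. Cd74 is the invariant chain that Ctss degrades, and the RT1 genes encode class II chains. Cd74 had a mean of 1454 ± 396 in the oculomotor nucleus at 30 months, against 453 ± 100.3 at 6 months (SD, n = 3 each). At 18 months there 0 of the 14 passed. In the cord at 18 months 5 rose, against 0.728% of all called: RT1-Bb by 1.92, RT1-Db1 by 1.69, RT1-Da by 1.23, Cd74 by 1.06, and Grn, the lysosomal glycoprotein progranulin that cathepsins cleave, by 0.84. Grn averaged 1599 ± 336 in the cord at 18 months, against 890.2 ± 151 at 6 months. In the cord at 30 months 3 rose (0.221% of all called), RT1-Bb by 1.71, RT1-Db1 by 1.56 and RT1-Da by 1.15. The largest adjusted p among these 12 calls was 0.0393. The RT1 genes are near copies of one another, so probes can share their transcripts. Cd74 in the cord at 18 months lies outside the fixed choice of 4 per list and is named after its value was seen.

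Most markers of microglia and macrophages had positive differences from 6 months, without most of them passing the test. Of 19 markers 15 were on the array and 13 were tested. All 13 had a positive difference in the cord at 18 and at 30 months, with medians of 0.63 and 0.51, and in the oculomotor nucleus 12 and 13 had, with medians of 0.31 and 0.44. Of all probe sets 49.5% and 50.4% were positive in the cord, and 49.1% and 50.2% in the oculomotor nucleus. Called in the cord were 0.728% of all at 18 months and 0.221% at 30 months, and in the oculomotor nucleus 0 and 0.211%. Past the test were 4 in the cord at 18 months (Fcer1g, Cd53, C1qa and P2ry12, by 0.69, 0.89, 0.78 and 0.63), 0 in the cord at 30 months, where the 2 smallest adjusted p were 0.0643 and 0.0828, 0 in the oculomotor nucleus at 18 months and 2 at 30 months (Fcer1g and Cd53, by 0.57 and 0.75). Summed over the 15, signals on the arrays were 6132 to 6469.9 at 6 months, 7576 to 7759 at 18 months, then 8259 to 9383 at 30 months in the oculomotor nucleus. In the cord the sums were 9563 to 9997 at 6 months, 13450.2 to 17564 at 18 months, then 11846 to 16755 at 30 months. No marker of the 15 was at the floor on every array. The sums of the ages 18 and 30 months therefore lay above those of 6 months in both tissues, and all oculomotor sums lay below all cord sums. Cd68 and Laptm5 are also proteins of the lysosome. The part of these cells in the values of Ctse, Ctss, Ctsz and Ctsh was not tested.

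Markers of neutrophils and of T cells were low. Of 3 neutrophil markers on the array, S100a8 was at the floor on every array and S100a9 above it on 2 of 18. Lcn2, the third, had a mean of 92.4 in the cord at 6 months, 447 at 18 months and 294 at 30 months. The sums of the 3 were 332 to 667 on the cord arrays of 18 months and 178 to 621 on those of 30 months, against 54.1 to 199 at 6 months. The sums of 7 T cell markers were 966 to 1097 in the cord at 18 months and 836 to 989.7 at 30 months, against 869.8 to 957 at 6 months, with 1 marker at the floor throughout. On the oculomotor arrays they were 546 to 565 at 6 months, 586 to 754 at 18 months, then 659 to 828 at 30 months. There every array of a later age lay above every array of 6 months, as it did for Ctss. Of single probe sets tested, 7.29% did so at 18 months and 6.69% at 30 months, which is not a share for sums of 7 markers. Of the 7 T cell markers only 2 passed the filter on low signals, and 0 of these were called. Neutrophil sums on the oculomotor arrays were 55.9 to 121 at 6 months, 75.7 to 113 at 18 months, then 114 to 163 at 30 months. The part of these cells in the values of Ctse and Ctss was not tested.

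Irf8, which works with PU.1 in microglia and macrophages, was the 1 of 4 tested regulators of lysosomal and myeloid genes to be called between ages. It rose in the cord at 18 months by 0.70 (SE 0.16, adjusted p = 0.0479), with a mean of 264 ± 14.7 against 164 ± 24.1 at 6 months. Called in that comparison were 0.728% of all probe sets. Irf8 lay close to the threshold and was not followed under the alternatives. At 30 months its difference was 0.56 (adjusted p = 0.160).

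**Figure D4:**
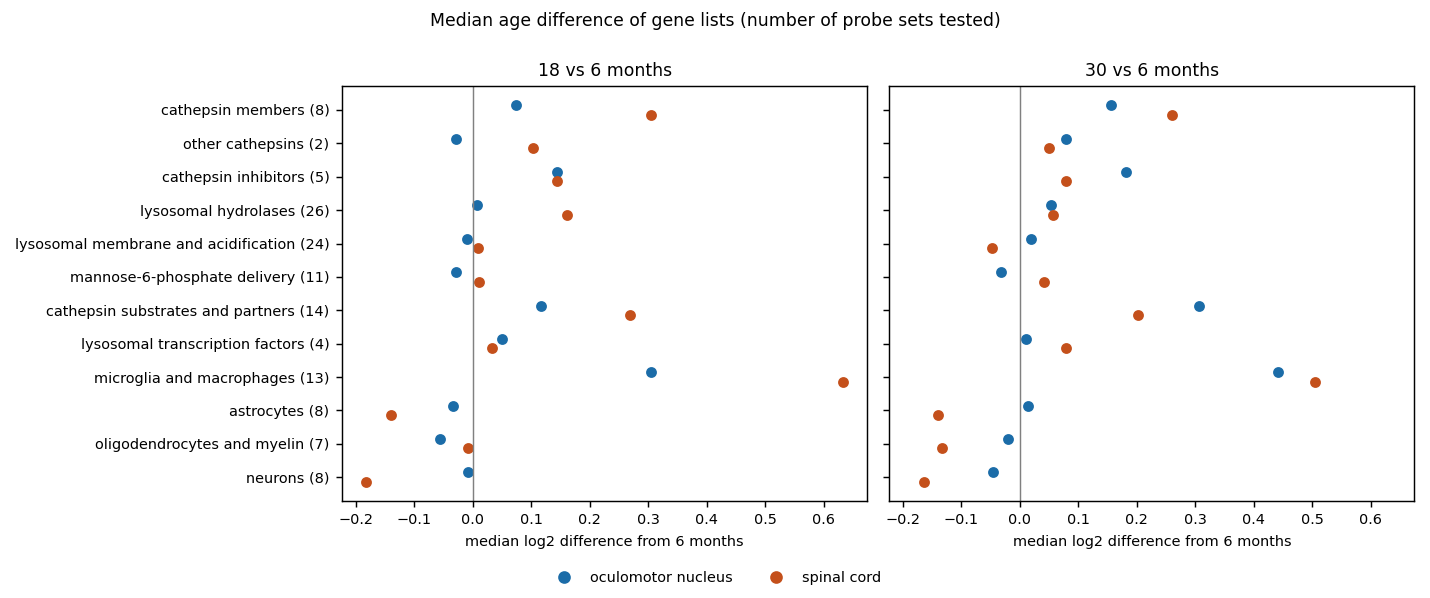
Median log2 difference from 6 months over the probe sets tested of each gene list, at 18 months (left) and 30 months (right), in the oculomotor nucleus (blue) and the spinal cord (orange); numbers in brackets are probe sets tested. In the cord at 18 months the cathepsins lie at 0.30, the hydrolases at 0.16 and the microglial markers at 0.63.

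The genes most like each member over the 18 arrays, after each tissue's mean was taken out, were found for the members with an unadjusted p under 0.05 between ages. For Ctse these were Lgals3, which encodes galectin-3 (Pearson r = 0.89, Spearman rho = 0.83), Rassf1 (r = 0.88) and Ik (r = 0.88). For Ctsz they were Csf1r, the receptor on which microglia depend (r = 0.88), Irf8 (r = 0.85) and Map3k1 (r = 0.84). For Ctss they were Rnaset2, a lysosomal ribonuclease (r = 0.89), P2ry12, a purine receptor of microglia (r = 0.82), and Arid4b (r = 0.81). For Ctsh they were Cnn3 (r = 0.91), Aif1, the microglial protein Iba1 (r = 0.88), and Pcna (r = 0.87). For 1370245_at of Ctsl the closest was Foxo4 (r = 0.77, rho = 0.54). These are descriptions over arrays that share their ages and the array effects named above, and they were picked as the highest among all genes.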

How the data were processed

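Per the submitters' processing notes, Affymetrix Microarray Suite 5.0 was used on the scanned arrays. The authors' deposited values are linear intensity values, 1 for each probe set on each array, with no detection calls. Read from the values, each array had a 2% trimmed mean close to 500. Signals were brought to exactly 500, raised to the floor of 66.4 and put on the log2 scale. After removal of 57 control probe sets, those with a mean above the pooled 40th percentile, 7.459, were kept, 9482 in all. Probe sets were named by the platform annotation, updated through Entrez identifiers: 12789 name 1 gene, 312 several and 2822 none.

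A mean for each of 6 groups was fitted with limma 3.58.1 in R 4.3.3 (empirical Bayes with a trend, 12 residual and 18.8 total degrees of freedom), 2-sided, with Benjamini-Hochberg adjustment over the probe sets kept and a threshold of 0.05. Tissue comparisons and interactions used the same fit, which was tested on simulated data. The number of arrays limits the precision. Members, lists and tests were chosen with earlier results of these data known. All members are named whatever their values, and of each list up to 4 genes with the smallest p in a comparison of ages. Where several probe sets name a list gene, the brightest on average was used. Same-numbered arrays did not all deviate together, within a tissue (correlations from -0.26 to 0.45, median 0.013, 18 pairs) or across tissues (-0.25 to 0.50, median 0.027, 27 pairs), so replicate numbers were not taken as pairs. The highest were between replicates 3, oculomotor nucleus and cord at 30 months (0.50) and cord at 18 and 30 months (0.45). These arrays are among those that stand apart on the first component, and the origin of these correlations was not tested. The 34 alternatives are in the closing section.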

Additional observations from a re-analysis of the deposited data

How the results depend on the processing

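Of the 34 alternatives, 18 left out 1 array each. No log2 difference of a cathepsin past the test reversed its sign under any of them. In the cord at 18 against 6 months, 1 probe set was called, with 0 under a stricter filter or without the 3 muscle-rich arrays, 2 (Ctse and Ctsz) with a block for the 4 arrays that stand apart or without them, an alternative chosen after seeing the data, 2 by the size rule of the design text (no overlap of the groups and a change of the mean over 1.7-fold), and 0 to 2 with 1 array left out. The count was 0 without cord replicate 2 at 18 months and 2 without cord replicate 3 at 18 months or replicates 1 or 3 at 30 months. At 30 against 6 months, 1 was called, with 0 under no filter, a stricter filter, a separate fit of each tissue, the muscle-rich arrays left out (1 cord array remains at 6 months), the muscle list as a covariate or the 4 arrays left out, and 0 to 1 with 1 array left out. With the replicate block the 30-month count was also 0 (Ctse 0.91, adjusted p = 0.0714), while Ctse at 18 months remained called (0.99, adjusted p = 0.0296). The labels do not say whether the numbers pair the samples. Over all ages of the cord, 1 was called, with 0 under a stricter filter, a separate fit of each tissue or without the muscle-rich arrays, and 0 to 1 with 1 array left out, 0 without cord replicate 1 at 6 months. The cause was not tested, except that the stricter filter removes Ctse.

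The Ctse difference ranged from 0.89 to 1.14 at 18 months (adjusted p 0.00388 to 0.116) and from 0.78 to 1.10 at 30 months (adjusted p 0.0127 to 0.135). In the oculomotor nucleus at 30 against 6 months 0 were called, and 0 to 1 with 1 array left out. Between the tissues at 6 months 1 was called, with 2 under quantile normalization or the block of arrays that stand apart, 0 without the muscle-rich arrays or by the size rule, and 1 to 3 with 1 array left out. At 18 months 5 were called, with 3 under the stricter filter and 3 by the size rule. At 30 months 3 were called, with 1 by the size rule and 3 to 4 with 1 array left out. Over all probe sets, calls in the cord at 18 months were 69 and ranged from 3 to 127, at 30 months 21 and from 0 to 72, and in the oculomotor nucleus at 30 months 20 and from 4 to 69.

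Low signals limit Ctsc, whose values lie near the floor, and the table carries no detection calls. With 3 pools in a group, the intervals show which differences these data leave possible.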
